A study of Macaca fascicularis with 64 samples.

Results

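The cytosolic ribosomal protein genes were followed through the endocrine cells of pancreatic islets from young and old cynomolgus monkeys (Macaca fascicularis). Every row of the deposited UMI tables was taken whose symbol is RPL or RPS followed by a digit, or RPSA, RPLP0, RPLP1 or RPLP2, without the RPS6K kinases and without paralogs whose names end in L. The selection went by symbol and gave 51 of 21041 macaque gene rows, and the set was chosen with earlier results of these data known. Of these, 50 name ribosomal proteins, 21 of the small subunit and 29 of the large subunit with RPLP0 and RPLP2 of the P stalk. The remaining row, RPS19BP1, encodes a protein that binds RPS19 and is not itself a ribosomal protein, so it is given apart. RPLP1, RPL13A, RPS27, RPS27A, RPL36A, RPL38, RPL39, RPS3 and RPS4Y1 were looked for by symbol and are not analysed here, as 5046 rows carry an identifier without a symbol.

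Cytosolic ribosomes translate the mRNAs of nuclear genes. Each ribosome is built from ribosomal RNA and a fixed set of proteins, most of them needed in equal numbers. Most mRNAs of ribosomal proteins start with a 5′ terminal oligopyrimidine (TOP) tract, through which the mTORC1 kinase controls their translation together with that of elongation factors. Endocrine islet cells use this machinery to make and secrete large amounts of peptide hormone: glucagon in α-cells, insulin in β-cells, somatostatin in δ-cells and pancreatic polypeptide in PP-cells.

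The islets came from the tail of the pancreas of 8 young (4–6 years) and 8 old (18–21 years) healthy monkeys, with 4 females and 4 males at each age and no treatment or genetic change in any of them. Monkeys are named as in the labels by age, sex and number, so that YM3 is young male 3 and OF1 is old female 1. Dissociated cells were picked by hand into 4 libraries per monkey and sequenced with unique molecular identifiers (UMIs), short tags that let each captured mRNA molecule be counted once. Each monkey was processed on a day of its own, so that day and monkey cannot be told apart.

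Cells were kept above 10000 UMIs and 800 genes, which left 5908 of 6141, and the most abundant of the 4 hormone mRNAs set the type of each. The 4503 α-cells (2331 young, 2172 old) and 1219 β-cells (536 young, 683 old) covered all 16 monkeys. The 112 δ-cells gave 11 monkeys with at least 5 cells (7 young, 4 old) and the 74 PP-cells gave 6 (2 young, 4 old). Each endocrine marker list had its highest median in the type it names. Each list includes the hormone mRNA that set the type, so this order does not test the typing. Markers of α-cells were also present in the other types. The 10 α-cell markers summed to a median of 153794 CPM (UMIs scaled to a library of 1000000) in α-cells, 57385 in β-cells, 61783 in δ-cells and 86476 in PP-cells, and 1272 cells had a leading hormone under 4 times the next one: 299 of 4503 α-cells, 835 of 1219 β-cells, 72 of 112 δ-cells and 66 of 74 PP-cells. Median UMIs per cell were 64894 in α-cells, 74425 in β-cells, 43776 in δ-cells and 45772.5 in PP-cells. The libraries share 1 set of 96 cell barcodes, and 0 cells had identical values. YM3 stood apart: its α-cells were the shallowest (median 40069.5 UMIs) and held 991 CPM of a list of 5 inflammatory genes, whose median over monkeys was 0.35 CPM. That list was chosen with earlier results of these data known, so it is not independent evidence on YM3.

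The members took 6.35% of all UMIs from macaque genes in the retained cells. By monkey, the share in α-cells ran from 4.80% in YM3 to 7.22% in OF3 with a median of 6.29%, and its mean was 6.17% ± 0.76 (SD, n = 16). In β-cells it ran from 4.97% in YM3 to 8.23% in YM2 (mean 6.73% ± 1.05, SD, n = 16). In δ-cells it ran from 3.10% in YM3 to 5.97% in OF1 (4.89% ± 0.85, SD, n = 11). The ranges of the 3 types overlapped widely, and YM3 was lowest in each of them. The 6 PP-cell samples lay at 5.44% in YM1, 5.78% in YM4, 4.43% in OF1, 4.95% in OF2, 7.34% in OM2 and 5.06% in OM4, with OM2 apart from the others.

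Set against the α-cells of the same monkey, the share was 0.562 percentage points higher in β-cells (SD 0.745) and was higher in 13 of 16 monkeys, the exceptions being OM1, OM4 and YM4. In δ-cells it was 1.15 points lower (SD 0.965) and lower in 10 of 11 monkeys, OF1 excepted. PP-cells were 0.538 points lower (SD 0.431) in 5 of 6 monkeys, OM2 excepted. Cell depth moved with these shares: within monkeys the share correlated with log2 UMIs per cell with a median r of 0.584 in α-cells and 0.509 in β-cells, over cells that share library and chemistry. Among cells with 40000 to 80000 UMIs the δ-cell difference was −0.345 points, with 3 of 4 monkeys lower. These 4 were YF3, OF1, OF2 and OM4. Over all their cells the δ-cell shares were 5.76%, 5.97%, 4.91% and 4.10%, against 6.26%, 5.20%, 5.25% and 5.65% in α-cells. The change from −1.15 points thus also reflects the change of monkeys. At the same depth the β-cell difference was 0.553 points, with 11 of 15 monkeys higher. For PP-cells the difference at this depth was −0.268 points, with 1 of 2 monkeys lower. Leaving the hormone UMIs out of the total gave −0.187 points (SD 0.681) in PP-cells over the 6 monkeys. The mitochondrial share also differed between types, at 5.44% ± 1.34 in β-cells, 3.42% ± 0.82 in α-cells (SD, n = 16 each), 4.62% ± 1.22 in δ-cells (SD, n = 11) and 3.72% ± 0.97 in PP-cells (SD, n = 6). Within monkeys it correlated with the members' share over cells with a median r of −0.353 in α-cells and −0.432 in β-cells, and its part in the differences was not tested. Per spike-in molecule, members were higher in β-cells than α-cells by 0.32 on the log2 scale (13 of 16 monkeys) and lower in δ-cells by 0.92 (11 of 11). This ratio also carries the total of gene UMIs per spike-in, which applies to all genes. As a share of gene UMIs, the members' mean log2 ratios were 0.12 in β-cells and −0.32 in δ-cells.

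**Figure D1:**
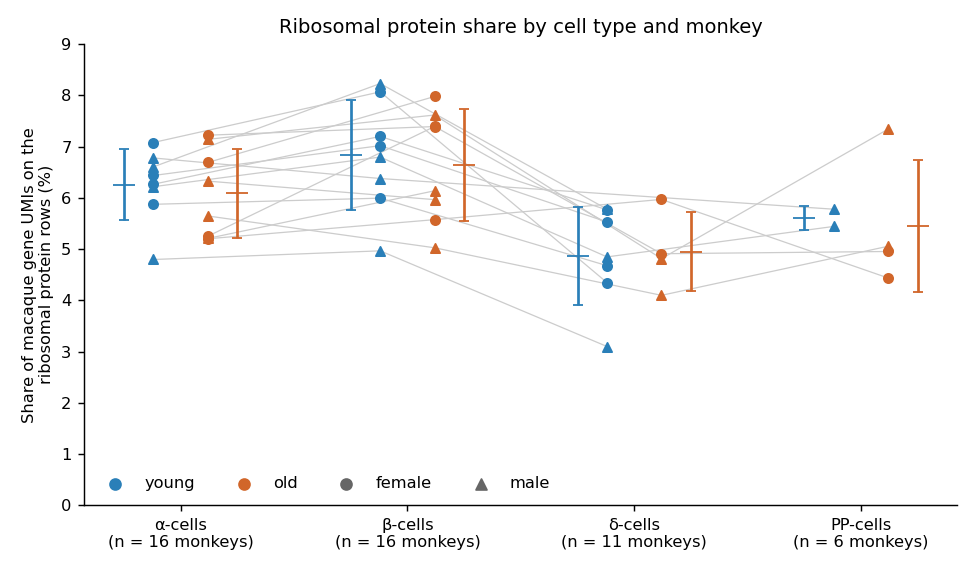
Share of macaque gene UMIs on the 51 members (percent, vertical axis) in α-, β-, δ- and PP-cells, with circles for females, triangles for males, young in blue and old in orange, grey lines joining the samples of a monkey and bars for the mean ± SD of an age group. Young and old points overlap in every type, and δ-cells lie lowest, at a mean of 4.89% against 6.17% in α-cells.

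A monkey's share was similar in its α- and β-cells. Across 16 monkeys the 2 shares correlated with Pearson's r = 0.704 (permutation p = 0.0029, adjusted 0.0174 over 6 relations) and Spearman's rho = 0.691 (permutation p = 0.00407, adjusted 0.02442). Without YM3 and OF1, the 2 monkeys farthest from the median, r was 0.557. The α- and β-cells of a monkey share its libraries and day, and the members were chosen with earlier results known. All p-values for the share are therefore given as descriptions only. The share in α-cells against the median UMIs per α-cell gave r = 0.572 (permutation p = 0.0195, adjusted 0.0586), and 0.281 without YF4 and YM3, so this relation rested on those 2 monkeys. Libraries of 1 monkey differed in the α-cell share by a median range of 0.641 points and at most 2.86, against 2.42 points between monkeys.

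Ribosomal protein mRNAs were not equally abundant. UMIs count molecules at 1 end, so levels in CPM were compared between genes without dividing by length. In α-cells the 50 proteins spanned 8.79-fold, from RPL23 with a mean of 304 CPM to RPL3 with 2672 CPM. The 3 highest over the 4 types were large-subunit proteins: RPL3, a protein near the catalytic centre, at 2462 CPM, RPL37 at 2262 CPM and RPL41, a very short peptide, at 2121 CPM. The lowest were RPS19BP1 at 130 CPM, RPL23 at 301 CPM and RPL28 at 498 CPM. The median level in α-cells was 1116 CPM for small-subunit and 1381 CPM for large-subunit proteins. Reads that map equally well to a gene and its processed pseudogenes were dropped by the authors, and ribosomal protein genes have many such copies, and the part of mappability in this order was not tested.

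This order was shared by the types. Log2 mean levels of the 50 proteins correlated between types with r from 0.910 (β- against PP-cells) to 0.959 (β- against δ-cells), over genes that share libraries and mapping. Among α-cells, RPL3 varied least between monkeys (coefficient of variation 10.4%), from 2298 CPM in OM3 through a median of 2598 to 3392 in OF3. RPS15A varied most (31.4%), from 375 CPM in OF1 through a median of 877 to 1217 in OM2. The median coefficient of variation over proteins was 19.0% in α-cells, 21.0% in β-cells, 29.5% in δ-cells and 25.5% in PP-cells, the last 2 from 5 to 33 cells a monkey.

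Most members rose and fell together from monkey to monkey. The log2 level of each protein was correlated with the mean of the others across the 16 monkeys, as a description, since all share library and depth. The median r was 0.883 in α-cells, with 46 of 50 proteins over 0.5, and 0.874 in β-cells, with 48 of 50. RPL7, a large-subunit protein, was the lowest in both, with r of −0.006 in α-cells and 0.245 in β-cells. Its α-cell level was highest in YF3 (2318 CPM) and in YM3 (2252 CPM), the monkey with the lowest total share.

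At the level of cells the set was close to universally detected. At least 1 UMI was seen in over 90% of cells for 50 of the 51 members in α-, β- and PP-cells and for 49 in δ-cells. RPS19BP1 was found in 81.5% of α-cells, 84.7% of β-cells, 58.0% of δ-cells and 74.3% of PP-cells. After thinning each cell to 10000 UMIs these shares became 53.8%, 58.3%, 35.7% and 45.9%, in 4464, 1213, 112 and 74 cells.

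Types were compared within monkeys on UMIs summed per monkey and type, by edgeR's quasi-likelihood test with monkey as a block and Benjamini-Hochberg adjustment over all 14648 genes tested. All 51 members passed the filter on low counts in every comparison. The 3 comparisons use the same α-cells as their reference and are therefore not independent. A difference is given as log2 of the type over α-cells.

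In β-cells, 8 of the 51 members differed from α-cells, 6 higher and 2 lower, against 25.7% of all genes in either direction, 7.6% higher and 18.1% lower. Among genes with a mean of at least 100 CPM, 18.2% were called higher and 17.9% lower. In either direction together, the members' share called was below both backgrounds. Their share called higher was above that of all genes and below that of the abundant genes. Their log2 differences were positive for 40 of 51 and had a median of 0.071, where the median over all genes was −0.20 and that over the 1673 genes with a mean of at least 100 CPM was 0.027.

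RPS4X, a small-subunit protein encoded on the X chromosome, had the largest difference. It ran from 570 to 1299 CPM in α-cells (median 895) and from 605 to 2143 CPM in β-cells (median 1472). Although the ranges overlapped, 15 of 16 monkeys were higher in β-cells, all but OM4 (log2 0.59 ± 0.10 SE, edgeR adjusted p = 6.592e-06). RPS6, the small-subunit protein that S6 kinases phosphorylate downstream of mTORC1, ran from 1046 to 1503 CPM in α-cells (median 1267) and from 1237 to 2184 CPM in β-cells (median 1762). It was higher in 15 of 16 monkeys, all but YF2 (log2 0.44, edgeR adjusted p = 0.001153).

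The other 4 that rose belong to the large subunit. RPL23, which also binds the p53 regulator MDM2, was higher in 16 of 16 monkeys, with medians of 320 CPM in α-cells and 411 CPM in β-cells (log2 0.41, edgeR adjusted p = 0.003897). RPL10, which joins the large subunit late in its maturation, ran from 1048 to 2290 CPM in α-cells (median 2076) and from 1276 to 3039 CPM in β-cells (median 2535). It was higher in 15 of 16 monkeys (log2 0.36, edgeR adjusted p = 0.002877). RPL7 was higher in 15 of 16 monkeys (log2 0.34, edgeR adjusted p = 0.005932) and RPL37 in 13 of 16 (log2 0.32, edgeR adjusted p = 0.03072). RPL37 had the weakest call of the 6, and it was lost without OF2 or without OM3.

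Of the 2 members that fell in β-cells, RPLP0 had the larger difference. Its mRNA, for the stalk protein that anchors the P1 and P2 dimers and through them the elongation factors, ran from 1245 to 1823 CPM in α-cells (median 1592) and from 833 to 1516 CPM in β-cells (median 1248). The ranges overlapped in part and 15 of 16 monkeys were lower, OF2 excepted (log2 −0.38 ± 0.11 SE, edgeR adjusted p = 0.005017). RPS29 was lower in 16 of 16 monkeys, with medians of 1773 CPM in α-cells and 1463 CPM in β-cells, and did not pass the test (log2 −0.20, edgeR adjusted p = 0.08029). RPLP2, the other stalk member measured, gave log2 −0.04. With spike-in UMIs as the library size the median over all genes moved from −0.20 to 0.024. Of the members 27 were called there, all of them higher, and RPLP0 gave log2 −0.16 without passing the test. The share of all genes called in that fit is not given here.

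**Figure D2:**
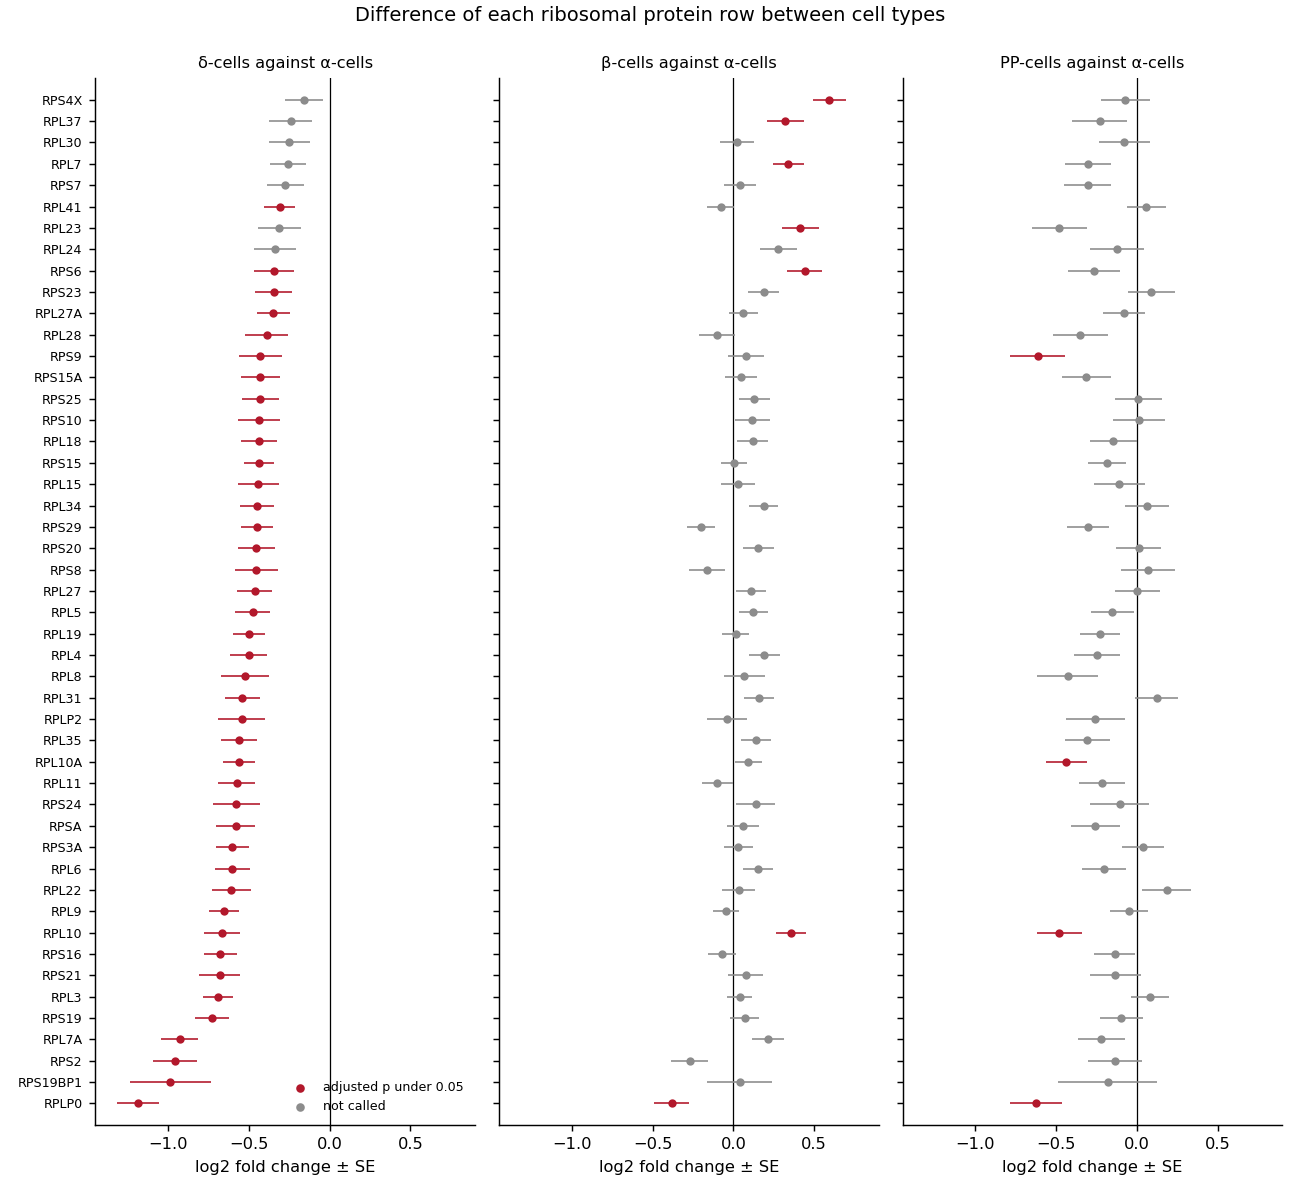
Log2 difference of the members from α-cells (edgeR log2 fold change ± SE, horizontal axis) in δ-, β- and PP-cells, 1 row per gene in the order of the δ-cell estimates, red where the adjusted p was under 0.05 and grey elsewhere, with 3 of the 51 members not shown. The β- and PP-cell estimates lie on both sides of 0, and the δ-cell estimates are all negative, from −1.19 for RPLP0 to −0.16 for RPS4X.

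In δ-cells, 44 of the 51 members were lower than in α-cells and 0 higher, against 22.7% of all genes in either direction, 18.9% lower and 3.83% higher. All 51 estimates were negative, with a median of −0.48. The median over all genes was also shifted, at −0.57, and that over genes of at least 100 CPM was −0.25, of which 29.5% were called lower. With DESeq2's size factors the median over all genes moved to −0.10, the members' median to −0.21 and the number of members lower to 19, with 0 higher. Relative to the median of all genes the members thus lay slightly above it by edgeR and slightly below it by DESeq2.

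RPLP0 had the largest δ-cell difference as well. It ran from 355 to 1469 CPM in δ-cells (median 588) and from 1245 to 1764 CPM in the α-cells of the same 11 monkeys (median 1591). Of the 11 δ-cell samples, 10 were below every α-cell sample, and OF1, at 1469 CPM, was the exception (log2 −1.19 ± 0.13 SE, edgeR adjusted p = 2.019e-10). RPLP2 fell as well (log2 −0.55, edgeR adjusted p = 0.0048), from a median of 775 to 544 CPM.

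Of the small subunit, 19 of 21 proteins were lower. RPS2, a protein at the mRNA entry side, ran from 149 to 610 CPM in δ-cells and from 541 to 1091 CPM in α-cells and was lower in 11 of 11 monkeys (log2 −0.96, edgeR adjusted p = 2.8e-07). RPS19, mutated in Diamond-Blackfan anaemia, fell by 0.73 on the log2 scale, and RPSA, also known as the laminin receptor, fell by 0.58. RPS4X and RPS7 were the 2 that did not pass, with log2 −0.16 (edgeR adjusted p = 0.3354) and −0.27 (edgeR adjusted p = 0.071).

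Of the large subunit outside the stalk, 22 of 27 were lower. RPL7A ran from 358 to 1044 CPM in δ-cells (median 751) and from 696 to 1865 CPM in α-cells (median 1282), lower in 11 of 11 monkeys (log2 −0.93, edgeR adjusted p = 9.8e-09). RPL3 was also lower in 11 of 11 monkeys (log2 −0.69, edgeR adjusted p = 9.5e-08). RPL5 and RPL11, which bind MDM2 together with 5S ribosomal RNA, fell by 0.48 and 0.58. RPL37, RPL30, RPL7, RPL23 and RPL24 did not pass the test, with log2 values from −0.34 to −0.24. RPS19BP1 ran from 12.8 to 207 CPM in δ-cells and fell by 0.99 (edgeR adjusted p = 0.0028).

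In all, 13 members were lower in each of the 11 monkeys. The share of all genes lower in each monkey was not computed, and the median over all genes was shifted down as well. Depth and type purity moved with this comparison: δ-cells had fewer UMIs than α-cells, with medians of 43776 and 64894, and 72 of 112 had a leading hormone under 4 times the next. Acinar markers, of which 6 of 12 were found, summed to between 68 and 1123 CPM in δ-cells (median 403) and between 0.81 and 2398 CPM in α-cells (median 3.4), and their part in the result was not tested. With cells of 40000 to 80000 UMIs, 13 members were called lower and 0 higher, and with hormone-pure cells alone 8 were lower and 0 higher, from fewer monkeys. Set against the sum of the members themselves, 4 were lower and 1 higher. The shares of all genes called in these fits are not given here, so the counts do not set the members apart from other genes. Leaving out any 1 monkey gave from 39 to 48 members lower.

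In PP-cells, 4 of 51 members were lower than in α-cells and 0 higher, against 6.33% of all genes in either direction, 4.87% lower and 1.46% higher. Of genes of at least 100 CPM, 9.86% were called lower and 3.41% higher. RPLP0 was again the member with the largest difference. Its PP-cell levels were 938 CPM in OF1, 996 in OF2, 1489 in OM2, 832 in OM4, 1119 in YM1 and 841 in YM4, each below the α-cells of the same monkey, which ran from 1245 to 1764 (log2 −0.63, edgeR adjusted p = 0.01208). RPL10A was lower in 6 of 6 monkeys (log2 −0.44, edgeR adjusted p = 0.02678). RPS9 (log2 −0.62, edgeR adjusted p = 0.02089) and RPL10 (log2 −0.48, edgeR adjusted p = 0.02925) were lower in 5 of 6, with OF1 as the exception for both. The members' median was −0.15, above the −0.49 of all genes and the −0.21 of genes of at least 100 CPM.

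This comparison depended on scaling and on which monkeys were in the fit. With DESeq2 the median over all genes moved from −0.49 to −0.03 and that of the members to 0.086, with 2 members higher and 0 lower. Without YM4, edgeR called 0 members, with 9 at an unadjusted p under 0.05. Leaving out YM1 or OM2 left 1, and leaving out OF2, OF4, OM1, OM3 or YM2 left 2. OF4, OM1, OM3 and YM2 gave no PP-cell sample, as none had 5 PP-cells. They entered this fit through their other cell types only, so those losses do not come from their PP-cells. RPLP0 lost its call without YM4 (log2 −0.58, edgeR adjusted p = 0.0538) and kept it when any other monkey was left out.

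**Figure D3:**
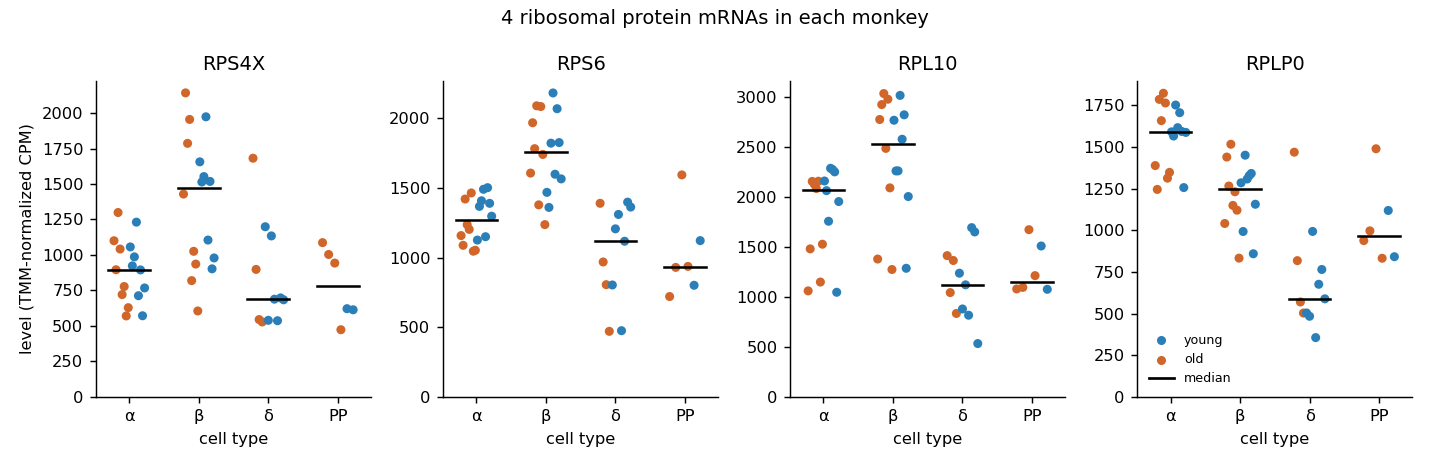
Normalised level (CPM, linear axis from 0) of RPS4X, RPS6, RPL10 and RPLP0 in α-, β-, δ- and PP-cells, 1 point per monkey (young in blue, old in orange) and a line at the median. RPLP0 falls from a median of 1592 CPM in α-cells to 1248 in β-, 967 in PP- and 588 in δ-cells, whereas RPS4X is highest in β-cells at 1472.

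Other genes of the translation machinery, from lists compiled with earlier results of these data in view, were read in the same fits, where 18.9% of all genes were lower and 3.83% higher in δ-cells, 4.87% lower in PP-cells, and 18.1% lower and 7.6% higher in β-cells. Among elongation factors, 3 of 7 were lower and 1 higher in δ-cells (median −0.59). EEF1A1, which brings aminoacyl-tRNA to the ribosome and is a TOP mRNA, was lower in δ-cells (log2 −0.75, edgeR adjusted p = 4.452e-11) and in β-cells (log2 −0.35, edgeR adjusted p = 3.779e-05). Among the other TOP mRNAs, 7 of 16 were lower in δ-cells and 0 higher, including RACK1, which sits on the small subunit (log2 −0.67, edgeR adjusted p = 0.001066). The 60 nuclear-coded proteins of the mitochondrial ribosome gave 7 lower and 0 higher in δ-cells (median −0.29), 9 lower in PP-cells, and 1 higher and 2 lower in β-cells. Among 46 ribosome biogenesis factors, 15 were lower and 0 higher in δ-cells (median −0.61) and 1 was called in each direction in β-cells. Of 33 initiation factors, 5 were lower and 1 higher in δ-cells, and only EIF4A2 passed in β-cells (log2 0.56, edgeR adjusted p = 2.355e-05).

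The study's main comparison, old against young monkeys, was run in each type with sex as a covariate. In α-cells 0 of 51 members were called, against 0% of all genes, with 0 at an unadjusted p under 0.05 by edgeR and 0 called by DESeq2. In β-cells 0 were called, against 0.027% of all genes, again with 0 at an unadjusted p under 0.05 and 0 by DESeq2. In δ-cells 0 were called, against 0%, with 0 under 0.05 and 0 by DESeq2. In PP-cells 0 were called, against 0.0457% (0.0152% higher, 0.0305% lower), with 1 under an unadjusted 0.05 and 0 by DESeq2. Few genes of any kind were called with age at this number of monkeys.

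The total share did not separate the ages. It was 6.26% ± 0.69 in young and 6.08% ± 0.87 in old α-cells (SD, n = 8 each), 6.83% ± 1.07 and 6.63% ± 1.09 in β-cells (SD, n = 8 each), and 4.86% ± 0.96 (SD, n = 7) and 4.95% ± 0.77 (SD, n = 4) in δ-cells. The differences were smaller than the spread between monkeys in each type. In PP-cells the 2 young monkeys averaged 5.61% and the 4 old monkeys 5.45%.

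The median log2 difference of old over young was −0.058 in α-cells, −0.031 in β-cells and −0.031 in δ-cells, beside medians over all genes of 0.0018, 0.0122 and 0.0080. Single estimates in δ-cells were wider, from −1.08 for RPS19BP1 to 0.49 for RPLP2, and none passed the test. RPS9, a small-subunit protein, had the most negative estimate among the ribosomal proteins in both α- and β-cells. Its α-cell level ran from 932 to 1327 CPM in young monkeys (median 1170) and from 798 to 1167 CPM in old monkeys (median 1028), with overlapping ranges (log2 −0.21 ± 0.12 SE, edgeR adjusted p = 0.796). In β-cells it gave log2 −0.19 ± 0.14 SE (edgeR adjusted p = 0.993). The most positive estimates were 0.19 for RPS21 in α-cells and 0.17 for RPL37 in β-cells.

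RPL3, the most abundant member, ran from 2267 to 2913 CPM in young and from 2215 to 3259 CPM in old α-cells, and its estimate was 0.04 ± 0.10 SE. RPLP0 ran from 1226 to 1680 CPM in young and from 1217 to 1739 CPM in old α-cells (log2 −0.04 ± 0.11 SE). Young and old ranges overlapped for both, with the highest old value above the highest young value. RPS6 gave log2 −0.15 ± 0.11 SE in α-cells and −0.01 ± 0.14 SE in β-cells, and neither passed the test.

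No member had young and old values that did not overlap in α-cells, where 0.0297% of all genes did, in β-cells (0.027%) or in δ-cells (0.689%). In PP-cells RPL27, RPL28, RPS19BP1 and RPS20 did not overlap between 2 young and 4 old monkeys, 4 of 51 members against 13.4% of all genes. The median SE of a ribosomal protein's age estimate was 0.14 in α-cells, 0.16 in β-cells, 0.29 in δ-cells and 0.42 in PP-cells. Small differences were thus not detectable in the rare types, and differences in α- and β-cells could go uncalled too. In the same fits RPS4X differed between the sexes by log2 −0.60 ± 0.12 SE in α-cells and −0.85 ± 0.16 SE in β-cells. Neither difference passed by edgeR.

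**Figure D4:**
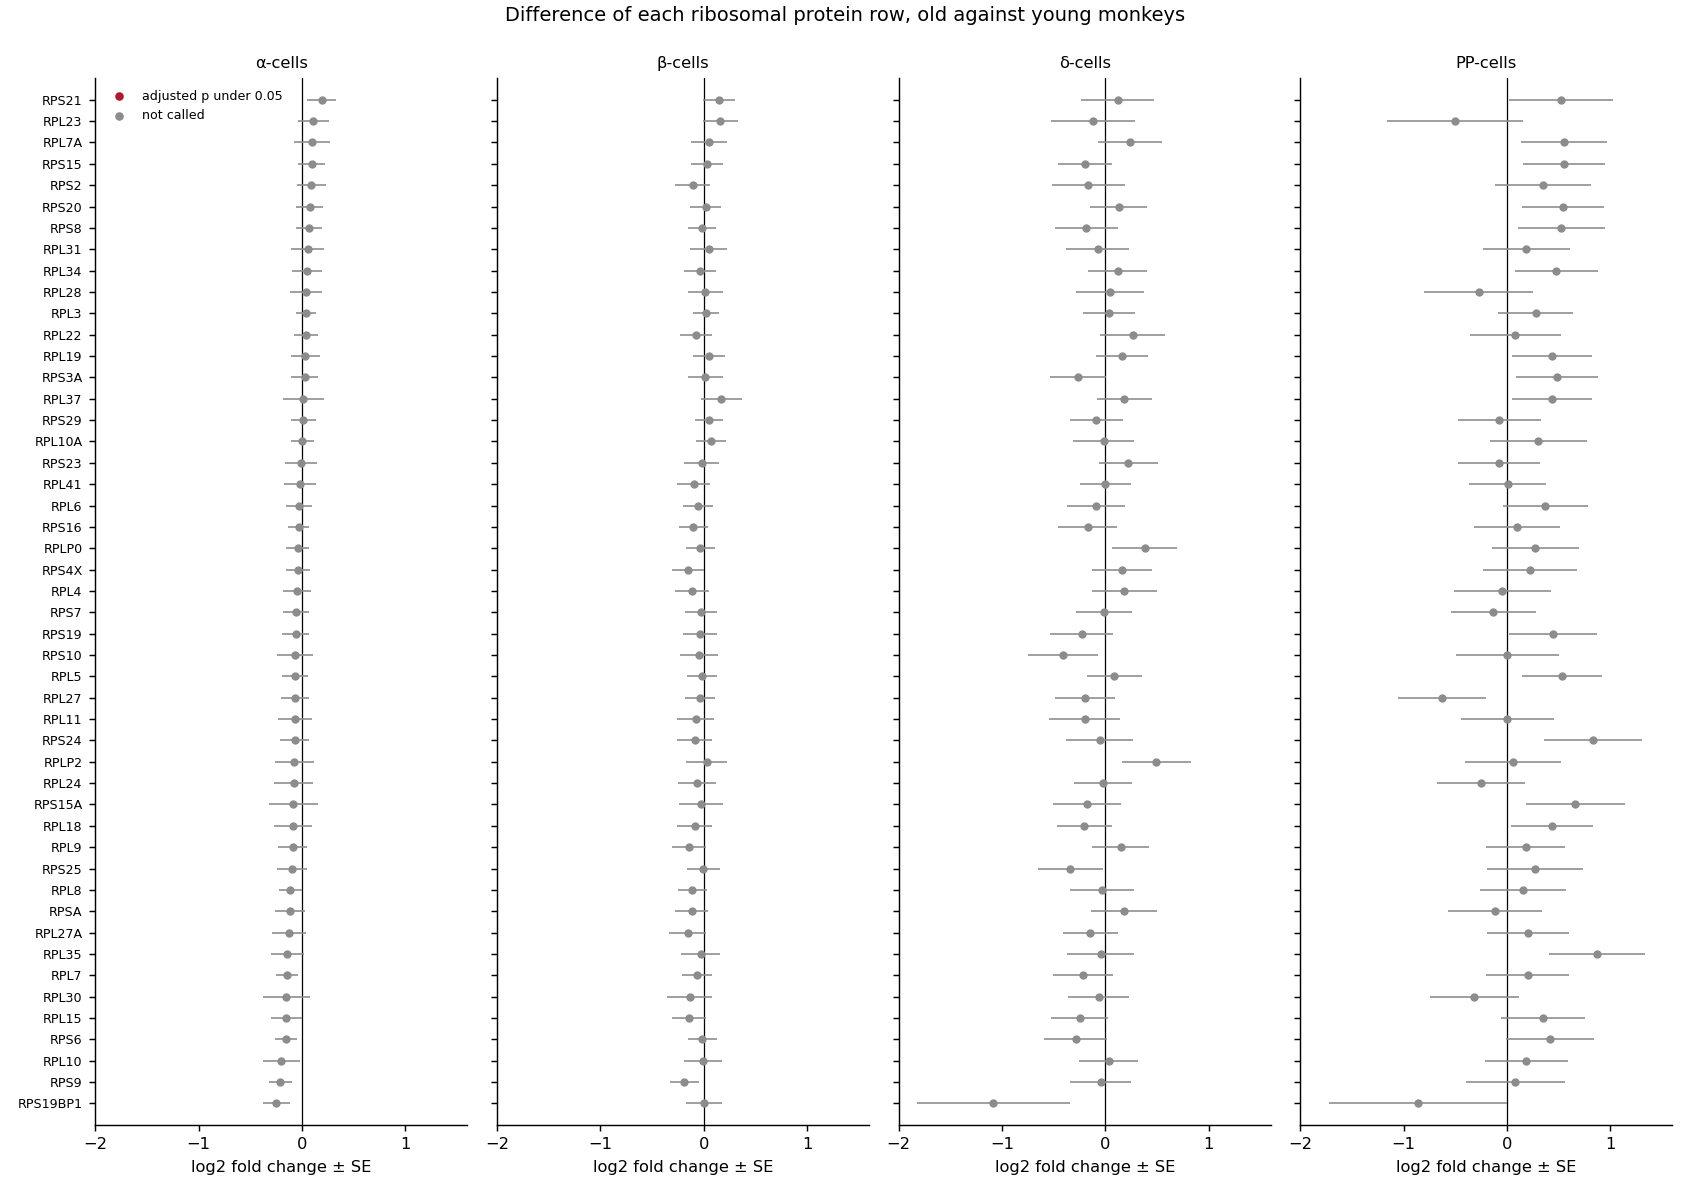
Log2 difference of old over young monkeys for the members (edgeR log2 fold change ± SE with sex as covariate, horizontal axis) in α-, β-, δ- and PP-cells, 1 row per gene in the order of the α-cell estimates. No member was called, the α- and β-cell estimates lie between −0.25 and 0.19, and PP-cells, with 2 young and 4 old monkeys, spread more widely. Of the 51 members, 3 are not shown.

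Whether age acted differently in females and males was tested as an interaction in α- and β-cells. In α-cells 0 members were called, against 0.00707% of all genes, and in β-cells 0, against 0%. By edgeR 0 members had an unadjusted p under 0.05 in either type, and DESeq2 called 0 in both.

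RPS4X was examined by sex after its values had been seen. It is X-linked, and its Y-linked partner RPS4Y1 is not analysed here. In α-cells its level ran from 896 to 1299 CPM in the 8 females (median 1049) and from 570 to 895 CPM in the 8 males (median 717), so that the sexes did not overlap, though OF2 and YM2 were close. The share of all genes whose sexes do not overlap was not computed. In β-cells RPS4X ran from 1429 to 2143 CPM in females (median 1722) and from 605 to 1518 CPM in males (median 957), overlapping through YM2. The difference of males from females was log2 −0.60 ± 0.12 SE in α-cells (edgeR adjusted p = 0.1734) and −0.85 ± 0.16 SE in β-cells (edgeR adjusted p = 0.06272). The estimates of other members were mostly negative too: 9 of 51 were positive in α-cells (median −0.063, all genes −0.0006) and 2 of 51 in β-cells (median −0.17, all genes 0.020). Neither RPS4X difference passed by edgeR, where 0 members and 0% of all genes were called in both types, with 1 member at an unadjusted p under 0.05 in α-cells and 2 in β-cells. DESeq2 called RPS4X lower in males in both, with adjusted p = 0.001818 and 0.000163, where it called 31 of 13486 genes in α-cells and 16 of 11101 in β-cells.

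The same order was seen in the rare types. RPS4X medians were 1016 CPM in 6 females and 544 CPM in 5 males in δ-cells, with overlap, and PP-cells gave 1003 and 1087 CPM in 2 females and from 473 to 943 CPM in 4 males. RPL10, another X-linked member, had medians of 2098 CPM in females and 2022 CPM in males in α-cells, with ranges from 1061 to 2290 and from 1048 to 2277. In β-cells its medians were 2775 CPM in females and 2292 CPM in males, with overlap (log2 −0.23 ± 0.19 SE, edgeR adjusted p = 0.9996), in δ-cells 1083 and 1366 CPM, and in PP-cells 1088 and 1363 CPM.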

How the data were processed

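The authors isolated islets, picked single cells with a mouth pipette, prepared libraries by a modified STRT-seq protocol with UMIs (a modified SMART-seq2 in the labels) and sequenced them on an Illumina HiSeq X system. Their notes name CASAVA 1.8 and TopHat2 2.0.12, and the methods name the Macaca fascicularis 5.0 genome, with uniquely mapped reads counted by HTSeq. The deposited files hold UMI counts per gene and cell, not normalized, made by the authors by counting each molecule once, with 95 spike-in rows kept apart (5.41% of UMIs). Of 21041 genes, 51 were members. Members and gene lists were chosen with earlier results of these data known.

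Cells with over 800 genes and 10000 UMIs were typed by the highest of GCG, INS, SST and PPY. Doublets were not called; cells above the 95th percentile of UMIs in their monkey were left out as an alternative. UMIs were summed per monkey and type with at least 5 cells, and the monkey was the replicate. Counts were fitted with edgeR 4.0.16 (limma 3.58.1, R 4.3.3; TMM scaling, filterByExpr, robust quasi-likelihood test), with sex and age in each type, sex by age in α- and β-cells, and monkey as a block between types. Genes were called at an adjusted p of 0.05 (Benjamini-Hochberg) over all genes tested. DESeq2 1.42.0 was the other tool. The fitting was tested on simulated data. Levels are TMM-scaled CPM, and those printed by age were scaled within a type. Shares are percentages of macaque gene UMIs. Correlations across monkeys used 100000 resamples in two-sided permutation tests (scipy 1.17.1). Python 3.11.15, numpy 2.4.6, pandas 2.3.3 and matplotlib 3.10.9 were used.

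Replicate numbers did not pair monkeys: deviations of same-numbered monkeys correlated with a mean r of 0.027 in α-cells and −0.001 in β-cells. Named members were the 5 with the largest called difference in each direction of a comparison, a fixed list of well-studied members (such as RPLP0, RPSA, RPL3, RPL5, RPL10, RPL11, RPS4X, RPS6, RPS19 and RPS29), the 3 highest and 3 lowest in level and RPS19BP1. Some members that this takes in are not reported here. RPS7, RPL7 by monkey, RPS15A, RPS9 and RPS21 with age, and RPS4X by sex were named after their values were seen. Alternatives varied the tool, scaling, filter, cell selection and depth, and left out each monkey. Members were also restricted to the 44 that remain if names such as RPL3 are read as ending in L plus a digit.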

Additional observations from a re-analysis of the deposited data

Results flagged for a closer look

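Levels of single members in 175 groups of 4 to 10 monkeys were screened for a monkey whose gap to its nearest neighbour was large against the group's range, by Dixon's criterion, and 6 were found. At the level used, chance alone would give about 1 in 20 groups, and the 6 found among 175 do not exceed that rate. Of the 6, 4 were in the α-cells of the same monkey, YM3, the lowest of 8 young monkeys. Most members rose and fell together between monkeys, so these 4 are not separate findings. RPL10 was 1022.09 CPM there, against 1687.13 in the next lowest. RPL11 was 592.366 CPM against 944.418, RPL41 was 1444.68 CPM against 2185.59, and RPLP0 was 1225.67 CPM against 1512.54. YM3 also had the fewest UMIs per α-cell, and the part of depth in these values was not tested. OM2 was highest among the 4 old monkeys for RPL11 in δ-cells (977.084 CPM, next 618.382) and for RPLP0 in PP-cells (1524.43 CPM, next 914.905), with 5 cells in each sample.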

How the results depend on the processing

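With age, 0 members were called in α-, β-, δ- and PP-cells by edgeR and under each alternative that could be fitted, as was the case for sex by age in α- and β-cells. Age in δ- and PP-cells with hormone-pure cells, and age in PP-cells with at least 10 cells a monkey or with matched depth, could not be fitted. With spike-in UMIs as library size the all-gene median of the β-cell age estimates moved from 0.012 to 0.31 and the members' median to 0.28, so that the sign of the members' age difference in β-cells depends on the scaling. The replicate block, which pairs monkeys by number, gave 0 members called with age in each type; without the monkey block, 6, 34 and 3 members were called in β-, δ- and PP-cells.

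The 8 members called in β-cells became 27 with spike-in UMIs as library size, 16 with at least 10 cells and 21 with the 2 types fitted alone, and ranged from 6 to 11 with a monkey left out. RPS4X, RPS6, RPL10 and RPL7 were called in β-cells under each of these. The 44 members called in δ-cells, all lower, became 19 with DESeq2, 23 with a library size without hormones, 8 with hormone-pure cells and 13 at matched depth, all lower, and 5 against the members' own sum (4 lower, 1 higher), and ranged from 39 to 48 with a monkey left out. RPLP0 was called lower in δ-cells in 14 of 15 alternatives, and with hormone-pure cells it gave log2 −0.63 (edgeR adjusted p = 0.1461). The 4 members called in PP-cells became 35 with spike-ins, 8 with thinned cells, 2 with DESeq2 (both higher), 2 each without hormones, without the filter, without possible doublets and with the 2 types alone, 1 against the members' own sum, and 0 by edgeR with at least 10 cells (10 at an unadjusted p under 0.05) or at matched depth (4), and ranged from 0 to 4 with a monkey left out. For RPS4X by sex, DESeq2 called 1 member in α-cells and 1 in β-cells where edgeR called 0, and leaving out 1 monkey (OF1, OM2, YF2 or YM2) gave 1 in β-cells, the range being 0 to 1. Matched depth, the members' own sum and the fits by sex were added after the data were seen. The cause of these changes was not tested. For the comparisons of types, the shares of all genes called under the alternatives are not given beside these counts. The counts therefore do not tell a change in the members from a change in all genes. The δ- and PP-cell samples hold 5 to 33 cells a monkey, which limits their precision.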
